A study of Mus musculus with 4 samples.

Results

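Neurotrophins, the glial cell line-derived neurotrophic factor GDNF and their receptors were followed in RNA captured with a biotin-tagged miR-206 mimic. The group holds 9 genes, chosen by symbol from the 28649 gene rows of the deposited table. These are the ligand genes Bdnf, Ntf3 and Gdnf, the neurotrophin receptor genes Ngfr, Ntrk2, Ntrk3 and Sort1, and the GDNF receptor genes Gfra1 and Ret. The choice was made with the pulldown values known, Bdnf as a published miR-206 target found lower and Ngfr as a gene found higher. The values of these 9 genes, with any call or interval given for them, are therefore a description and not a test.

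All RNA came from cultured FAPs (fibro-adipogenic progenitors, stromal cells that lie between muscle fibres), which had been sorted as Sca1+ cells from wild-type C57Bl/6 mice. At about 80% confluency they received a mimic for 24 hours and then spent 48 hours in basal medium with 10% horse serum. The miR-206 pulldown (2 libraries) came from cells given the biotin-tagged miR-206 mimic, and the control pulldown (2 libraries) from cells given a biotin-tagged control mimic. The labels do not tie the replicates to separate mice or cultures. The spread behind each p-value is thus that of these libraries alone and may be technical. Unselected RNA of the same cells was not analysed here, so a level in a pulldown is not corrected for the level in the cells, and in such bulk RNA fewer expressing cells and less RNA per cell cannot be told apart.

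Neurotrophins are secreted growth factors best known for keeping neurons alive and shaping their synapses. Each binds a Trk receptor tyrosine kinase (BDNF binds TrkB, the product of Ntrk2, and neurotrophin-3 binds TrkC, the product of Ntrk3), and all of them bind the p75 receptor encoded by Ngfr. Uncleaved proneurotrophins bind p75 together with sortilin, the product of Sort1. GDNF binds the membrane-anchored co-receptor GFRA1, which then engages the receptor tyrosine kinase RET. In muscle these factors act on motor and sensory nerve endings, and miR-206, which muscle makes, is known for its role in the regrowth of nerve endings after injury. A microRNA finds its targets mainly through its seed, the bases near its 5′ end.

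The bait is shown with its seed (bases 2 to 8) in capitals, because the complement of those bases is what a target transcript would carry. The mature sequence is that of RefSeq (GRCm38.p6), from chr1:20679055-20679076 on the plus strand. The sources used here do not state the sequence of the mimic itself.
mmu-miR-206-3p: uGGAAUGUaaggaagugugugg
At least 3 mature mouse miRNAs in the RefSeq table used, which was not counted in full, carry this seed, miR-206-3p included. The other arm of the hairpin has a different one.
mmu-miR-206-5p: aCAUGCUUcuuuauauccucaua
The DNA letters that pair with the miR-206-3p seed are ACATTCC. They were searched on both strands of the 14 windows around start sites (250 bases before to 50 after) that the table holds for 6 of the 9 genes. One window held them on the sense strand, 1 of the 7 windows of Bdnf, where they begin 18 bases after the annotated start site. Over all 32851 windows, 631 (1.92%) held them on the sense strand and 645 (1.96%) on the other. Within the 50 bases after the start site, where the Bdnf match lies, 79 windows (0.24%) held them on the sense strand. The stretch of Bdnf is shown with the match in capitals, at chr2:109722927-109722955 on the plus strand (GRCm38.p6), because Bdnf is the published target among the 9 genes.
Bdnf: gtttccatcacACATTCCtcccaaggact
On the antisense strand 1 of the 7 Bdnf windows held the letters, and whether it is the same window was not recorded. The windows of Ntf3, Ngfr, Ntrk2, Gdnf and Gfra1 held none on either strand. A match of letters is a description and not a binding site, and the rest of the transcripts was not analysed here.

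The libraries held 14566568 and 15426666 estimated counts (miR-206 replicates 1 and 2) and 8883197 and 14261566 (control replicates 1 and 2). Bgn, a proteoglycan gene, alone made up 13.9% and 11.8% of the miR-206 libraries, against 0.960% and 1.12% of the control libraries. Levels are given as normalised CPM, counts relative to a library size that was scaled with TMM, a trimmed mean over genes. Only per-length values, the deposited TPM (relative transcript abundance corrected for length), are compared between genes. A log2 fold is miR-206 over control, from an edgeR quasi-likelihood fit on all 15240 genes kept by its filter on low counts, with an approximate standard error (SE). Of the 9 genes, 8 passed that filter and Ntrk3 did not. The median log2 fold over all genes was -0.11 with TMM, -0.09 with RLE, -0.40 with the upper quartile, -0.83 with log2(TPM + 0.5) and -1.22 with total counts alone, so folds are also given relative to this median.

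**Figure D1:**
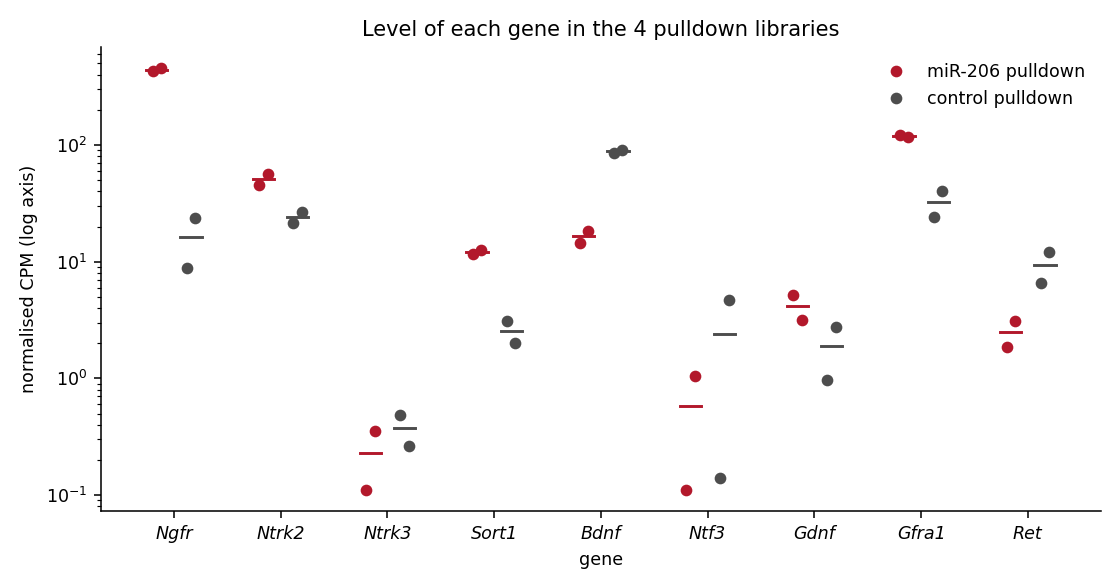
Normalised CPM (log axis) of the 9 genes in the miR-206 pulldown (red, left of each pair) and the control pulldown (grey). Points are the 2 libraries of a group and bars their mean. Ngfr lies at 435 and 453 in the miR-206 replicates against 8.85 and 23.5 in the control replicates, and Bdnf at 14.5 and 18.4 against 85.6 and 90.9.

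Among the ligands, Bdnf was lower in the miR-206 pulldown. Its locus is on chromosome 2, 109674700 to 109727043 (RefSeq annotation of GRCm38.p6, as for all loci here). It had 14.5 and 18.4 normalised CPM in the miR-206 replicates, against 85.6 and 90.9 in the control replicates. Both miR-206 values lay far below both control values, and the replicates of each group lay close together. The underlying estimated counts were 132 and 209 in the miR-206 libraries and 1229.9 and 1732 in the control libraries. The log2 fold was -2.42 ± 0.31 (SE), with a 95% interval from -3.06 to -1.77, which is a 5.35-fold lower level. Relative to the median of all genes it was -2.31. Per length, Bdnf averaged 3.12 ± 0.587 TPM in the miR-206 pulldown and 31.3 ± 0.286 TPM in the control pulldown (SD, n = 2 each). It was the most abundant of the 9 transcripts in the control pulldown and the fourth in the miR-206 pulldown. The log2 fold in the authors' deposited table, built from mean TPM without a test, was -3.33.

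Ntf3, the gene of neurotrophin-3 (chromosome 6, 126101412 to 126166772), was at the edge of detection. It had 1 and 12 counts in the miR-206 replicates, against 2 and 89 in the control replicates. The groups overlapped, and only control replicate 2 held a sizeable number of reads. In normalised CPM the values were 0.110 and 1.06 in the miR-206 libraries and 0.139 and 4.67 in the control libraries, where 3 counts correspond to 0.157 to 0.330. The log2 fold of -2.00 ± 1.40 had an interval from -5.08 to 1.09 that holds 0. Without control replicate 2 it was 2.06, and without miR-206 replicate 2 it was -4.31, so its direction rested on single libraries.

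Gdnf (chromosome 15, 7810048 to 7837580) was also scarce, with 47 and 36 counts in the miR-206 libraries and 14 and 53 in the control libraries. It had 5.17 and 3.17 normalised CPM in the miR-206 replicates, against 0.974 and 2.78 in the control replicates. On this scale the groups did not overlap, but the higher control value lay close to the lower miR-206 value. The deposited TPM overlapped, with 1.06 and 0.694 in the miR-206 replicates against 0.404 and 1.10 in the control replicates. The log2 fold of 1.13 ± 0.76 had an interval from -0.46 to 2.73, and it was 0.60 without control replicate 1, 2.12 without control replicate 2 and 0.06 with total counts alone. At this depth neither direction of Gdnf could be shown.

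Ngfr, the gene of the p75 receptor (chromosome 11, 95568818 to 95587698), had the largest fold of the 9 genes. It had 435 and 453 normalised CPM in the miR-206 replicates, against 8.85 and 23.5 in the control replicates. The miR-206 replicates were nearly equal, while the control replicates differed by more than their lower value. The counts were 3949 and 5150 (5149.6 before rounding) in the miR-206 libraries and 127 and 449 in the control libraries. The log2 fold was 4.77 ± 0.47 with an interval from 3.77 to 5.77, a 27.3-fold higher level, and 4.88 relative to the median of all genes. It stood at rank 189 from the top among the 15240 genes. The control replicate decided part of this size, since the log2 fold was 5.69 without control replicate 2 and 4.26 without control replicate 1. Per length, Ngfr averaged 96.0 ± 7.27 TPM in the miR-206 pulldown, more than any other of the 9 transcripts, and 6.61 ± 4.06 TPM in the control pulldown (SD, n = 2 each). The authors' deposited table gives a log2 fold of 3.86.

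Sort1, the gene of sortilin (chromosome 3, 108283974 to 108361519), was higher from a low level. It had 11.7 and 12.7 normalised CPM in the miR-206 replicates, against 3.13 and 1.99 in the control replicates. The groups were clearly apart, on 106 and 144 counts in the miR-206 libraries and 45 and 38 in the control libraries. The log2 fold was 2.25 ± 0.48 with an interval from 1.23 to 3.27, a 4.76-fold higher level. In TPM the values were 2.52 and 2.43 in the miR-206 libraries and 0.653 and 0.397 in the control libraries. The authors' deposited table lists the control mean, which lay below 1 TPM, at 0. Its log2 fold of 1.31 equals the log2 of the miR-206 mean alone, with the control taken as a log2 value of 0, and is not comparable with the fold above.

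Ntrk2, which encodes TrkB (chromosome 13, 58806472 to 59133970), differed less. It had 45.4 and 56.3 normalised CPM in the miR-206 replicates, against 21.4 and 26.8 in the control replicates. On this scale the groups did not overlap and the log2 fold was 1.08 ± 0.30, with an interval from 0.45 to 1.71. In the deposited TPM they did overlap, with 4.53 and 6.00 in the miR-206 libraries and 4.30 and 5.14 in the control libraries. The log2 fold was 0.14 on TPM and -0.02 with total counts alone, and the authors' deposited table gives 0.16. Relative to the median of all genes, which moved by as much, it stayed between 0.96 and 1.21 under the 5 scalings. The fold of Ntrk2 was thus above that of the typical gene, whereas the share of Ntrk2 in the library was about the same in both groups.

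Ntrk3, which encodes TrkC (chromosome 7, 78179986 to 78581034), was the rarest of the 9 genes. It had 1 and 4 counts in the miR-206 replicates, against 7 and 5 in the control replicates. All 4 values lie near the floor of 3 counts. The normalised CPM overlapped, whereas both TPM values of the miR-206 libraries (0.0241 and 0.0822) were below those of the control libraries (0.326 and 0.399), and no fold is given.

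Gfra1, the GDNF co-receptor gene (chromosome 19, 58235581 to 58455946), was also on the higher side. It had 122 and 117 normalised CPM in the miR-206 replicates, against 24.4 and 40.1 in the control replicates. The groups were apart in TPM as well, with 20.0 and 20.8 in the miR-206 replicates against 10.2 and 12.7 in the control replicates. The counts were 1105 and 1332 in the miR-206 libraries and 350 and 764 in the control libraries. The log2 fold was 1.89 ± 0.32 with an interval from 1.21 to 2.57, and 0.80 to 1.91 under the other scalings. Relative to the median of all genes it lay between 1.64 and 2.02.

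Ret, the signalling receptor that GFRA1 engages (chromosome 6, 118151748 to 118197744), lay on the other side. It had 1.87 and 3.08 normalised CPM in the miR-206 replicates, against 6.54 and 12.1 in the control replicates. Both miR-206 values were lower, on 17 and 35 counts in the miR-206 libraries and 94 and 231 in the control libraries. The log2 fold was -1.90 ± 0.55 with an interval from -3.06 to -0.75. It was -1.35 without control replicate 2, -1.63 without miR-206 replicate 1 and -2.30 without miR-206 replicate 2, and in each of these 3 cases the gene was no longer called depleted. Per length, Ret averaged 0.246 ± 0.0956 TPM in the miR-206 pulldown and 1.74 ± 0.683 TPM in the control pulldown (SD, n = 2 each). The authors' deposited table lists the miR-206 mean at 0, so that its log2 fold of -0.80 rests on the control mean alone and is not comparable with the fold above.

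**Figure D2:**
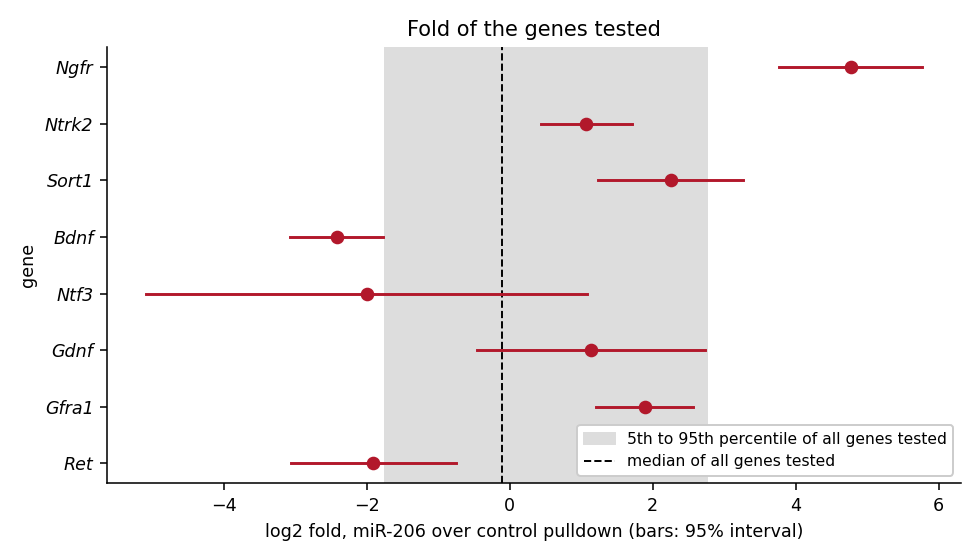
Log2 fold (miR-206 over control) of the 8 genes that passed the filter, with 95% intervals, against the 5th to 95th percentile of all 15240 genes (grey band, -1.74 to 2.76) and their median (dashed, -0.11). Ngfr lies wholly above the band. The intervals of Ntf3 and Gdnf hold 0.

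Of the 8 genes tested, 4 were called enriched (Ngfr, Sort1, Gfra1 and Ntrk2) and 2 depleted (Bdnf and Ret) at an edgeR adjusted p under 0.05, and 2 were not called (Ntf3 and Gdnf). Over all 15240 genes 15.3% were called enriched and 6.19% depleted, 21.5% in all. Because this contrast chose the genes, nothing is read from their count. In normalised CPM the miR-206 values were higher without overlap for 5 of the 8 and lower for 2, 7 in all, beside 29.7%, 32.3% and 62.0% of all genes. With TPM the miR-206 values were higher without overlap for 3 of the 8 and lower for 2, beside 12.0% and 65.7% of all genes. The median log2 fold of the 8 was 1.11, beside -0.11 over all genes.

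The order of the levels, per length, differed between the pulldowns. In the miR-206 pulldown the mean TPM ran from Ngfr (96.0) over Gfra1 (20.4), Ntrk2 (5.26), Bdnf (3.12), Sort1 (2.47), Gdnf (0.877), Ntf3 (0.342) and Ret (0.246) to Ntrk3 (0.0532). Of neighbours in that order only Ntf3 and Ret overlapped, and Ntf3 also overlapped with Ntrk3. In the control pulldown it ran from Bdnf (31.3) over Gfra1 (11.4), Ngfr (6.61), Ntrk2 (4.72), Ntf3 (2.54), Ret (1.74), Gdnf (0.751) and Sort1 (0.525) to Ntrk3 (0.362). There Ngfr, Ntrk2, Ntf3 and Ret overlapped in sequence, as did Gdnf, Sort1 and Ntrk3. The control values of Ntf3, 0.170 and 4.91 TPM, also span those of Gdnf, Sort1 and Ntrk3. The order within those runs, and of Ntf3 against Gdnf, Sort1 and Ntrk3, thus does not hold beyond the spread of the libraries.

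**Figure D3:**
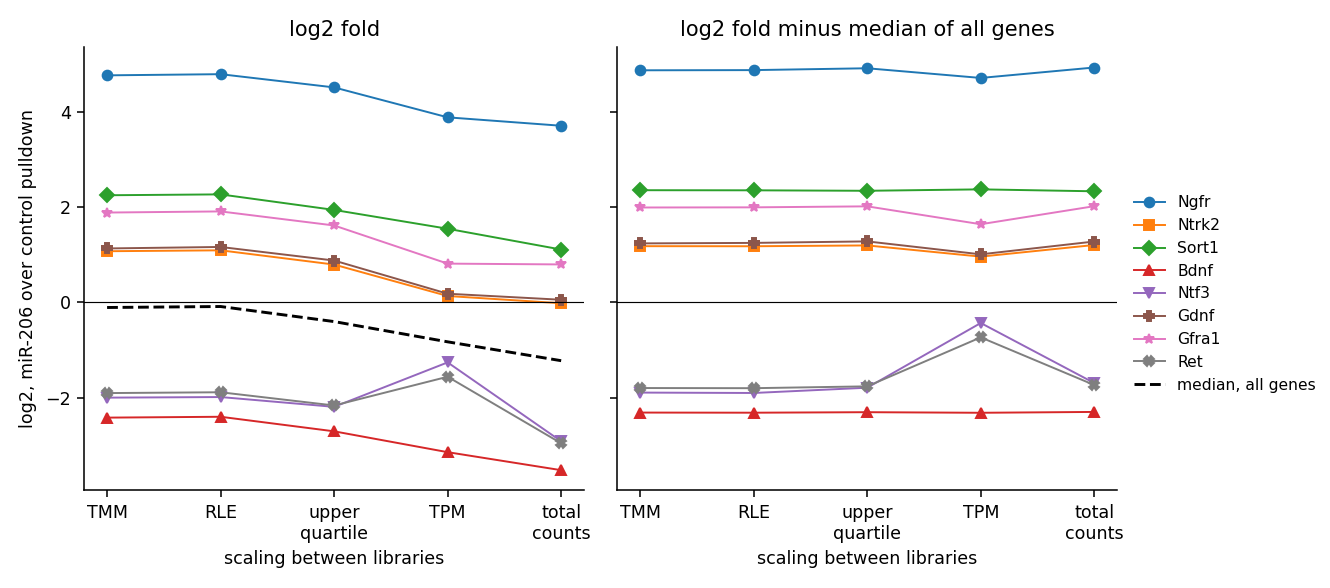
Log2 fold of the 8 genes under 5 scalings (left) and the same minus the median of all genes (right), miR-206 over control. The dashed line is the median of all genes, which falls to -1.22 with total counts alone. Bdnf stays between -2.32 and -2.30 and Ngfr between 4.72 and 4.94 on the right, and Ntf3 and Ret move towards 0 with TPM, where 0.5 is added to low values.

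The scaling moved all 8 folds together, and their order around the median held for most genes. Relative to the median, Sort1 lay between 2.33 and 2.38 and Gdnf between 1.01 and 1.28 under the 5 scalings. The exceptions were the scarce transcripts Ntf3 and Ret on the TPM scale. There they were at -0.43 and -0.73 relative to the median, against -1.89 and -1.80 with TMM. The control TPM of Sort1 (0.653 and 0.397) also lay near the 0.5 added on that scale. Its counts per TPM differed between the groups as well, so its narrow range does not show that its TPM fold is free of either effect.

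The deposited counts and TPM of a gene also hold a trace of which transcripts its reads were assigned to. Counts per TPM are proportional to the mean effective length of those transcripts, and were divided by the library's median over genes. The level of the gene cancels in this ratio, but its scatter can be larger at low counts. For Sort1 it was 1.30 and 1.59 in the miR-206 replicates, against 2.85 and 2.79 in the control replicates. The Sort1 reads of the miR-206 pulldown were thus assigned to transcripts of a shorter mean length. The largest value exceeded the smallest 2.19 times, which 295 of 10592 genes with at least 30 counts in every library reached (2.79%), while the median gene had a ratio of 1.07. The Sort1 values rest on 38 to 144 counts per library, and genes of like counts were not compared separately. Which transcripts the reads were assigned to is not given. For Gfra1 the measure was 1.71 and 1.72 in the miR-206 libraries and 1.42 and 1.76 in the control libraries, so control replicate 1 stood apart there. Bdnf had 1.51 and 1.58 in the miR-206 replicates, against 1.63 and 1.60 in the control replicates. For Ngfr, Ntrk2, Gdnf and Ret the largest value was at most 1.05 times the smallest.

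**Figure D4:**
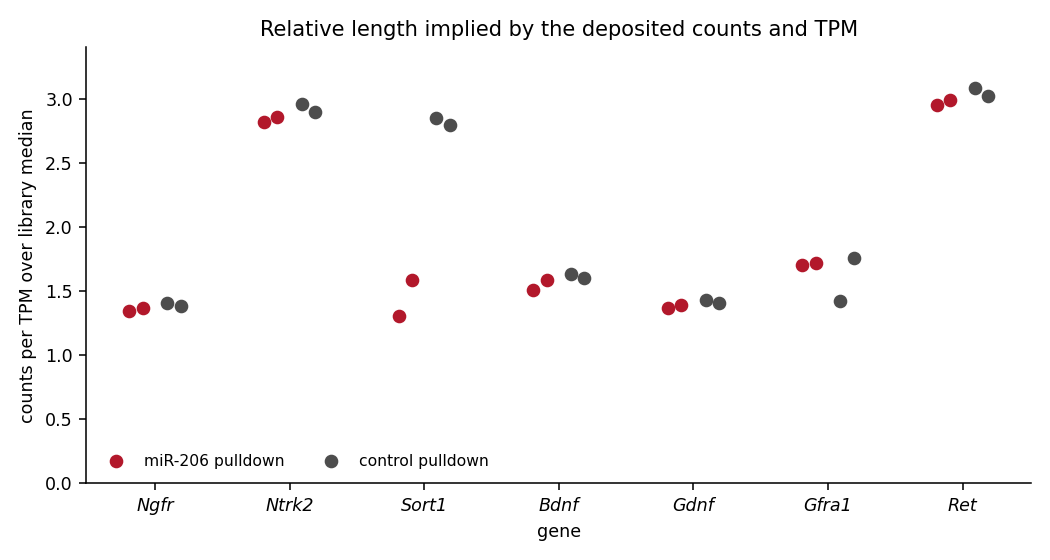
Counts per TPM over the library median (relative length) of the 7 genes with at least 10 counts in every library, in the miR-206 pulldown (red, left) and the control pulldown (grey). Sort1 lies at 1.30 and 1.59 in the miR-206 libraries and at 2.85 and 2.79 in the control libraries, whereas the values of Ngfr, Ntrk2, Gdnf and Ret differ little between libraries.

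Other genes of the pathway were described from 6 lists by role, with 88 genes in the table and 77 tested. Of these 13 were enriched (16.9%) and 6 depleted (7.79%), near the 15.3% and 6.19% of all genes, with a median log2 fold of 0.10. The lists follow the role of the genes, and the adjusted p-values come from the edgeR fit over all genes.

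The further ligands reported here were scarce. Ntf5, the gene of neurotrophin-4, had 4.33 and 17.0 counts in the miR-206 replicates against 7.07 and 2.02 in the control replicates. The GDNF relatives Nrtn, Artn and Pspn had at most 6 counts in any library.

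Of 15 further receptors and co-receptors 11 were tested, 3 were enriched and 0 depleted, with a median log2 fold of 0.44. Gfra2, the co-receptor of the GDNF relative neurturin, had 682 and 588 normalised CPM in the miR-206 replicates, against 24.9 and 28.8 in the control replicates (log2 fold 4.56 ± 0.38, edgeR adjusted p = 1.5e-07). Ncam1, a cell adhesion molecule that can act as a GDNF receptor beside GFRA1, had 2575 and 2358 in the miR-206 replicates against 124 and 155 in the control replicates (4.14 ± 0.42, edgeR adjusted p = 8.9e-07). Lingo1, which forms a complex with p75 on neurons, had 30.5 and 22.7 in the miR-206 replicates against 4.45 and 6.82 in the control replicates (2.23 ± 0.37, edgeR adjusted p = 0.000217). These 3 calls held in all 12 alternatives.

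Proneurotrophins are cleaved inside the cell by proprotein convertases and outside it by plasmin and metalloproteinases. Of 9 tested processing genes 1 was enriched and 1 depleted. The convertase gene Pcsk5 had 207 and 358 normalised CPM in the miR-206 replicates, against 31.1 and 59.5 in the control replicates (log2 fold 2.64 ± 0.40, edgeR adjusted p = 0.000122). Plat, the tissue plasminogen activator that makes plasmin, had 17.3 and 19.6 in the miR-206 replicates against 65.8 and 86.3 in the control replicates (-2.04 ± 0.30, edgeR adjusted p = 6.8e-05). Furin, the best known convertase of these precursors, had a log2 fold of 0.49 ± 0.29 and did not pass.

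Of 10 tested genes that act with p75 inside the cell 0 were enriched and 1 depleted by edgeR. That gene was Rhoa, a small GTPase that p75 can activate, with 175 and 189 normalised CPM in the miR-206 replicates against 446 and 470 (470.3 before rounding) in the control replicates (log2 fold -1.33 ± 0.33, edgeR adjusted p = 0.00667). The p75 partner genes Ngfrap1 (-0.35 ± 0.34) and Maged1 (-0.57 ± 0.31) did not pass.

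The adaptors and kinases downstream of the Trk and RET receptors went both ways. Of 33 tested 5 were enriched and 4 depleted, with a median log2 fold of 0.06. Gab2, a docking protein, had 20.0 and 18.2 normalised CPM in the miR-206 replicates, against 1.81 and 1.42 in the control replicates (log2 fold 3.57 ± 0.44, edgeR adjusted p = 8.3e-06). Its relative Gab1 lay lower (-1.48 ± 0.44, edgeR adjusted p = 0.0211), a call lost without miR-206 replicate 2 (0.250) or control replicate 1 (0.0909). Dok5, an adaptor that binds RET and Trk receptors, had 9.59 and 11.2 in the miR-206 replicates against 36.0 and 73.7 in the control replicates (-2.39 ± 0.36, edgeR adjusted p = 0.000107). Map2k2, which encodes a kinase that activates ERK but not the only one, fell by 1.53 on the log2 scale (edgeR adjusted p = 0.000747).

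Of the other enriched adaptors, 3 depended on the scaling. Sos1, the exchange factor of RAS (log2 fold 1.49 ± 0.30, edgeR adjusted p = 0.0012), the docking protein gene Frs2 (1.33 ± 0.34, edgeR adjusted p = 0.00833) and the adaptor gene Shc2 (0.98 ± 0.31, edgeR adjusted p = 0.0297) lost their calls with total counts and with TPM. The log2 fold of Shc2 was -0.14 with total counts. The call of Frs2 was also lost without miR-206 replicate 2. That of Shc2 was also lost with the upper quartile, without either miR-206 replicate and without control replicate 1. It held in 6 of the 12 alternatives.

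**Figure D5:**
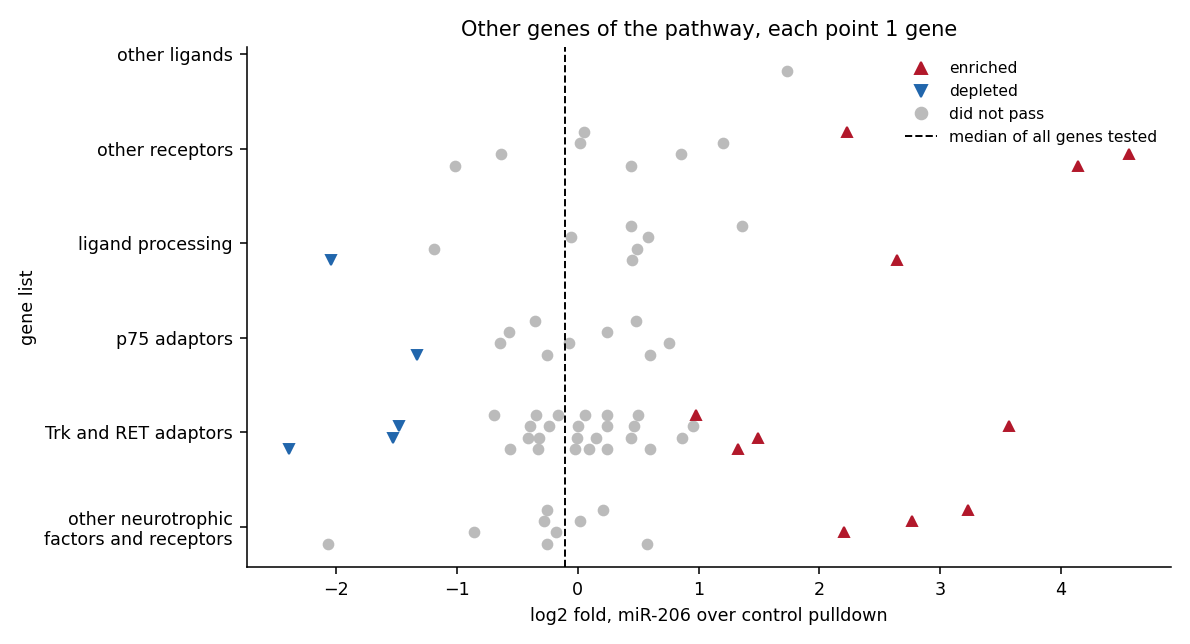
Log2 fold (miR-206 over control) of 73 of the 77 other pathway genes tested, by list, with red triangles for enriched, blue for depleted and grey for genes that did not pass an edgeR adjusted p of 0.05. The dashed line is the median of all genes, -0.11. Gfra2 (4.56) and Ncam1 (4.14) are the outermost points on the right.

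The sorted cells were checked against 7 marker lists. Of 10 FAP markers all were tested, 4 were enriched (Cd34, Thy1, Osr1 and Hic1) and 0 depleted by edgeR, beside 15.3% and 6.19% of all genes. The matrix genes Dcn (-0.48 ± 0.35) and Col1a1 (-0.72 ± 0.37) and the marker Pi16 (-0.66 ± 0.45) did not pass, with both miR-206 values below both control values in normalised CPM and TPM. Pdgfra, the receptor gene that defines FAPs, overlapped in normalised CPM (log2 fold 0.03 ± 0.35) and had 70.4 and 67.3 TPM in the miR-206 replicates against 110 and 147 in the control replicates. The summed level of the 10 was 4092 and 4362 TPM in the miR-206 replicates against 2514 and 3323 in the control replicates. Of these sums Osr1 was 1345 and 1298 TPM in the miR-206 replicates against 82.2 and 103 in the control replicates. Cd34 was 787 and 1062 TPM in the miR-206 replicates against 136 and 170 in the control replicates. Ly6a, the gene of the sorting marker Sca1, did not pass (log2 fold 0.73 ± 0.37). It was higher without overlap in normalised CPM but overlapped in TPM, with 1435 and 1498 in the miR-206 replicates against 1439 and 1944 in the control replicates. Glial cells of nerve, which are known to express Ngfr, were scarce by their defining markers, since Sox10, Cdh19, Foxd3 and Gfap had at most 8 counts in any library, Foxd3 with 0 in both miR-206 libraries and in control replicate 1. Of the 12 glial markers 7 were tested and 2 enriched, among them the adhesion gene L1cam. Their summed level was 29.8 and 14.3 TPM in the miR-206 libraries and 14.1 and 12.0 in the control libraries. The summed level of 4 pericyte markers, 2 of them enriched (Rgs5 and Abcc9), was 107 and 68.8 TPM in the miR-206 libraries and 6.74 and 8.95 in the control libraries, none of the 4 being at 0 throughout. Of 8 neuron markers 7 were tested, with Snap25 and Nefl enriched. The 8 summed to 49.98 and 53.5 TPM in the miR-206 replicates against 22.5 and 23.1 in the control replicates. Snap25 alone was 34.8 and 32.4 TPM in the miR-206 replicates against 1.89 and 3.20 in the control replicates. Apart from Snap25 and Nefl no neuron marker was higher in TPM without overlap. Most were lower without overlap, as were 65.7% of all genes tested. The part of these cells in the folds above was not tested.

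Myogenic, endothelial and immune markers were low or did not separate the groups by their sums. The 6 myogenic markers summed to 39.9 and 26.0 TPM in the miR-206 libraries and 29.3 and 30.3 in the control libraries, with 2 of 5 tested enriched (Myod1 and Myog). The 6 endothelial markers summed to 37.6 and 33.5 TPM in the miR-206 libraries and 79.7 and 28.4 in the control libraries, with 2 of 6 enriched (Cdh5 and Erg). The 5 immune markers summed to 4.25 and 5.63 TPM in the miR-206 libraries and 18.4 and 6.71 in the control libraries, with 0 of 3 tested called by edgeR, and the T cell marker Cd3e at 0 in both miR-206 libraries.

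Genes with a pattern like that of Bdnf or Ngfr were ranked by the Euclidean distance of log2(normalised CPM + 0.5), centred per gene, over the 4 libraries, among the 14050 genes that averaged 1 normalised CPM or more. Nearest to Ngfr were Itga11, a collagen-binding integrin subunit (distance 0.274), Inhba, a subunit of activin A (0.327), and Abcc9 (0.340). Inhba had 3254 and 3156 normalised CPM in the miR-206 replicates, against 85.3 and 167 in the control replicates. Nearest to Bdnf were Plcb2, a phospholipase C gene (0.178), Zfp568, a zinc finger gene (0.194), and Vmn1r95, named as a vomeronasal receptor (0.197). Zfp568 had 7.06 and 7.83 normalised CPM in the miR-206 replicates against 41.3 and 47.9 in the control replicates. Plcb2 had 2 and 4 counts in the miR-206 libraries and Vmn1r95 0 and 1.08, so their likeness rests on few reads and on the 0.5 added.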

How the data were processed

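Pulldown RNA of FAPs was compared between the miR-206 and control mimics, 2 libraries each. The authors' estimated counts, not all of them whole, came from kallisto (mm10), per the submitters' processing notes. The TPM values are the authors', per the file headers. The authors' log2 fold subtracts log2 group means of TPM, per the file headers. The sources used here give no versions and do not say how transcripts were joined to genes. Per-sample columns without a sample numbered 0.

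Counts were rounded and tested with edgeR 4.0.16 (R 4.3.3; TMM, filterByExpr, glmQLFit with robust estimation, glmQLFTest, group as the only term), with Benjamini-Hochberg adjustment over 15240 genes and a threshold of 0.05. The SE is the fold's size over the root of its F statistic, and neither it nor the 95% interval covers the choice of scaling. Alternatives used RLE, upper quartile, total counts, limma 3.58.1 on log2(TPM + 0.5), DESeq2 1.42.0, other filters, a replicate block and each library left out. Deviations of same-numbered libraries from their group means correlated at -0.09 over genes. With 2 libraries per group this cannot decide whether same-numbered libraries were paired, and the labels do not say.

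The members and lists were chosen with earlier results of these data known. All members are named. Of each pathway list up to 5 called genes in each direction are named by smallest adjusted p, and 3 genes most like Bdnf and Ngfr each. Genes named without a call (among them Ntf5, Nrtn, Artn, Pspn, Furin, Ngfrap1 and Maged1), as well as marker genes, were picked after their values were seen. Some genes of the lists are counted but not reported here one by one. Intervals and the floor of 3 counts cover counting or fit error only.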

Additional observations from a re-analysis of the deposited data

How the results depend on the processing

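Bdnf, Ngfr and Gfra1 kept their direction and stayed under the threshold in all 12 alternatives, Sort1 in all but total counts alone. The alternatives refit the same libraries, and these genes were chosen with this contrast known. Kept calls thus describe the effect of the processing only. The log2 fold of Ntrk2 turned to -0.017 with total counts, and its call was also lost on TPM and without miR-206 replicate 2. Ret was not called without miR-206 replicate 1 or 2 or control replicate 2, and Ntf3 ran from -4.31 without miR-206 replicate 2 to 2.06 without control replicate 2 and was called depleted without control replicate 1. Shc2 turned to -0.14 with total counts and -0.0039 with TPM. Genes called depleted numbered 1962 with the upper quartile, 6909 with total counts and 5841 with TPM, against 944, and genes called enriched 1070 with total counts and 1097 with TPM, against 2327. The share of enriched calls was 48.8%, 13.4% and 15.8% in these settings, against 71.1%. Of the 9 genes 2 were called enriched with total counts. Of the other pathway genes 35 were depleted and 7 enriched with total counts, and 21 and 6 with TPM, against 6 and 13. Leaving out each library in turn gave 358 to 1535 depleted and 1655 to 2576 enriched genes, 1 to 3 depleted and 3 to 4 enriched of the 9 genes, and 4 to 7 depleted and 9 to 18 enriched pathway genes. With the replicate block 2576 genes were enriched and 1129 depleted, and 4 and 2 of the 9 genes. The block pairs libraries by replicate number, and the labels do not say whether they share anything else. What moved these values beyond fewer libraries was not tested. Depth limits Ntf3, Ntrk3, Gdnf and Ret most.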

Other observations

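Among genes of other neurotrophic factors, 3 receptor genes were higher in the miR-206 pulldown. Of 12 tested genes of ciliary neurotrophic factor, leukaemia inhibitory factor, oncostatin M and further factors and receptors, 3 were enriched and 0 depleted by edgeR, beside 15.3% and 6.19% of all genes, with a median log2 fold of -0.08 beside -0.11. Osmr, the oncostatin M receptor, had 1211 and 1214 normalised CPM in the miR-206 replicates, against 126 and 133 in the control replicates (log2 fold 3.23 ± 0.38, edgeR adjusted p = 4.2e-06). Il6st, the signalling subunit that these receptors share, had 2486 and 4167 in the miR-206 replicates against 603 and 839 in the control replicates (2.21 ± 0.42, edgeR adjusted p = 0.0008). The call of Il6st was lost on TPM (log2 fold 0.82, limma adjusted p = 0.0656). Cntfr, the receptor subunit of ciliary neurotrophic factor, had 7.49 and 12.0 in the miR-206 replicates against 2.44 and 0.472 in the control replicates (2.77 ± 0.69, edgeR adjusted p = 0.0092). Its call was lost with total counts, on TPM and on leaving out miR-206 replicate 2 (edgeR adjusted p = 0.112). The ligand genes Lif (0.57 ± 0.56) and Clcf1 (-0.86 ± 0.31) did not pass.

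Of the genes that mark nerve tissue elsewhere, L1cam had 1295 and 620 (619.9 before rounding) counts in the miR-206 replicates, against 48.2 and 81.2 in the control replicates. Snap25, a gene of vesicle fusion, had 785 and 867 counts in the miR-206 replicates, against 46.3 and 89.7 in the control replicates. Both were chosen after their values were seen.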
